A study of Mus musculus with 2 samples.

Results

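The forkhead genes of the mouse were examined in RNA sequencing of immortalised mouse embryonic fibroblasts of the C57BL/6 strain, in 1 library with intact p65 (genotype p65+/+) and 1 library without it (p65-/-). Rela encodes p65, which with its partners forms the transcription factor NF-kB, and the study asked which genes differ in its presence and absence. The labels name no stimulus, age or passage, and they do not say whether the lines came from the same embryo or litter. Members were all transcripts of the deposited table whose gene symbol is Fox followed by a subclass letter and a number, leaving out opposite-strand genes, and 31 of 16881 entries are described. Another 12 genes with such symbols in RefSeq, Foxb1, Foxb2, Foxd3, Foxd4, Foxe1, Foxe3, Foxi1, Foxi2, Foxi3, Foxn4, Foxr1 and Foxr2, were not analysed here.

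Forkhead proteins are transcription factors that bind DNA through a shared winged-helix domain. Members of the FoxC, FoxD, FoxF, FoxL and FoxS subclasses pattern mesenchyme in the embryo, FoxA proteins open chromatin in endoderm, and FoxP and FoxK proteins act mostly as repressors. FoxO proteins are held in the cytoplasm when insulin and growth factor signalling is active, and FoxM1 drives genes of the G2 and M phases of the cell cycle.

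Depth was 20794476 fragments for wild-type and 15441394 for p65-null. Levels are in CPM, counts of fragments scaled to library size with TMM factors. A fragment value that is not whole was taken to hold a mate that was counted alone, which was not tested. With 1 library of each genotype there was nothing to test a difference against, and no p-value was computed. The intervals are 95% Clopper-Pearson intervals, which cover counting error in these libraries only. Rela stood at 90.5 CPM in the wild-type and 13.1 CPM in the p65-null library, with its log2 ratio at -2.79 (-3.01 to -2.58), on the side its labels give. Of the 10 fibroblast markers looked up, 9 were found and all of them were measured, with summed levels of 12010 CPM in the wild-type and 24687 CPM in the p65-null library. Among these, 4 were at least 2-fold higher, where 12.2% of all measured genes were. They were S100a4 at 121 and 1508 CPM and the collagen genes Col3a1 (2.95-fold), Col1a2 (2.60-fold) and Col1a1 (3119 and 6742 CPM). After a correction for the GC content and length of the transcript, given below, 3 were, where 10.4% of all were. Col1a1 then had a log2 ratio of 0.77. Vim was at 2810.0 and 3810.5 CPM, whereas Thy1 was lower, at 82.9 and 9.64 CPM, and so was Pdgfrb, at 199 and 150 CPM. Of 8 neural markers 7 were found, with sums of 88.1 and 45.9 CPM, most of it Tubb3 at 76.4 and 26.4 CPM, while Sox2 had 2 and 143.5 fragments. The part of these marker differences in the forkhead values was not tested. Xist had 956 wild-type and 2 p65-null fragments and the Y-linked Kdm5d had 0 and 207, so the libraries differ in sex-linked transcripts as well as in p65, and loss of p65 and the origin of the line cannot be told apart.

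Forkhead genes were more often lower than higher in the p65-null library. Of the 31 genes, 23 reached 1 CPM on average over the 2 libraries and are called measured here. Among these, 7 were at least 2-fold lower (Foxc1, Foxd1, Foxf1, Foxn2, Foxp1, Foxp2 and Foxs1), where 13.7% of all 12135 measured genes were. Foxd2 and Foxl1 were at least 2-fold higher, 2 genes where 12.2% of all were, and 14 lay within 2-fold. The log2 ratio was below 0 for 18 of the 23, against 51.2% of all measured genes, and the whole counting interval lay below 0 for 13, against 41.2%, and above 0 for 4, against 38.1%. Past 4-fold, 1 was lower (Foxp2), where 3.5% of all genes were, and 1 was higher (Foxl1), where 4.38% were. The median log2 ratio was -0.39, and it was -0.03 over all measured genes. Foxp2 passed the minimum through the wild-type library alone and Foxl1 through the p65-null library alone, so these 2 had to differ. Among the other 21, 6 were at least 2-fold lower and 1 was at least 2-fold higher. The shares over all measured genes also hold genes that passed through 1 library alone, so they are no like measure for these counts. Shares over all genes at the minimum in both libraries were not computed, so the counts among the 21 have no background beside them. Foxp1, at 2.01-fold lower, lay just past the 2-fold line, and Foxc2, at 1.83-fold higher, just within it.

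**Figure D1:**
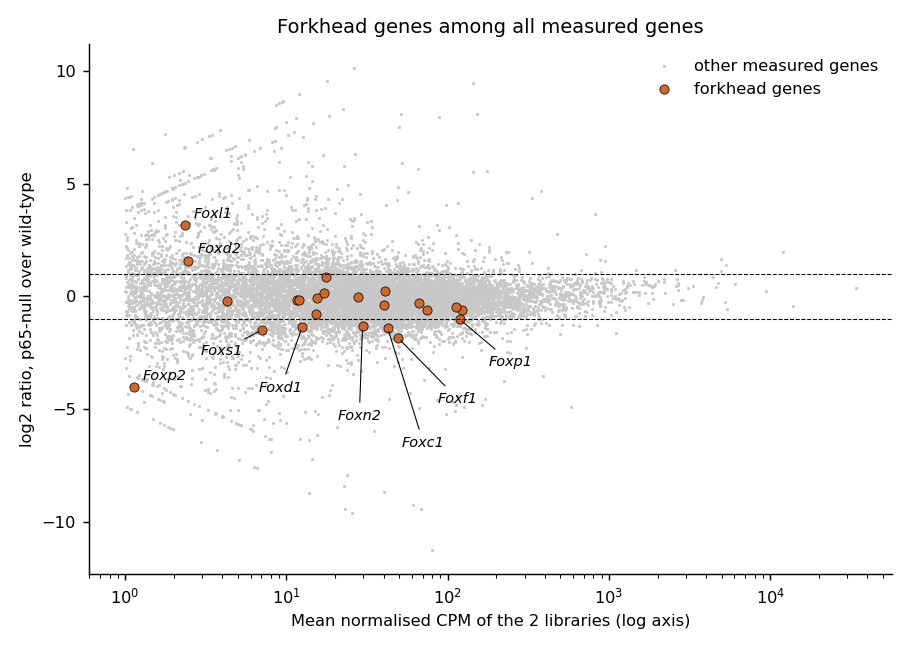
Each point is a measured gene, with its mean level in the 2 libraries (normalised CPM, log axis) against its log2 ratio of p65-null over wild-type; forkhead genes are in colour and dashed lines mark 2-fold. Most forkhead genes lie below 0, and the 9 that are at least 2-fold apart are named.

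The log2 ratio followed the GC content of the transcript across all measured genes (Spearman 0.44 over 11990 genes, which are not independent replicates). Forkhead transcripts were GC-rich, with a median of 55.1% against 50.5% over all measured genes, and 17 of the 23 lay above that median. After a correction for GC content and length, 7 forkhead genes were again at least 2-fold lower, where 10.2% of all genes with a corrected value were, and 2 at least 2-fold higher, where 10.4% were. Their median log2 ratio was then -0.54 against -0.09 over all genes, and 19 of the 23 lay below 0, against 55.6%. The set of lower genes differed: Foxn2 and Foxp1, whose transcripts have 41.2% and 44.9% GC, came within 2-fold at log2 ratios of -0.50 and -0.51, while Foxf2 and Foxp4 passed 2-fold at -1.32 and -1.12. The other 7 genes that were 2-fold apart remained so.

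**Figure D2:**
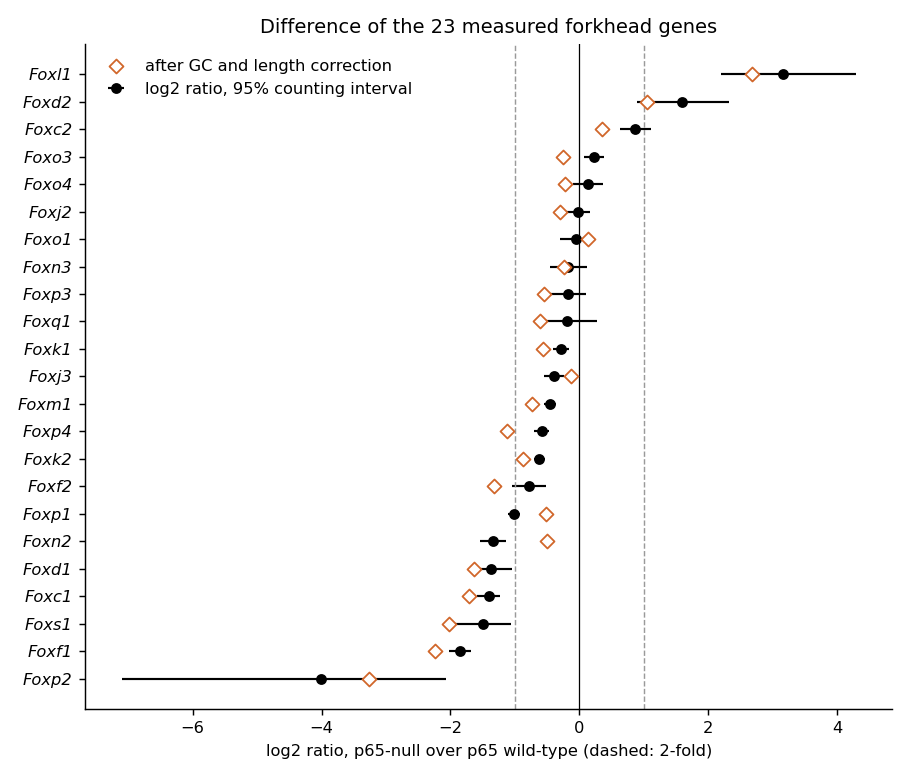
Log2 ratio of p65-null over wild-type for the 23 measured forkhead genes (points, 1 library per genotype), with 95% counting intervals (lines) and the value after correction for transcript GC content and length (open diamonds); dashed lines mark 2-fold. Foxp2 sits far to the left and Foxl1 to the right, and the diamonds of Foxn2 and Foxp1 lie inside the dashed lines while those of Foxf2 and Foxp4 lie outside.

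Among the forkhead genes of mesenchyme, Foxf1 showed the largest difference of those above 1 CPM in both libraries. Foxf1, a factor of lateral plate and visceral mesenchyme, had 77.1 CPM in the wild-type and 21.5 CPM in the p65-null library. It was 3.59-fold lower (3.19 to 4.06) without p65. Set per kilobase of transcript, Foxf1 had the highest level of the family in the wild-type library, 31.9 CPM per kb, ahead of Foxk2, Foxp4 and Foxm1. In the p65-null library it stood at 8.88 CPM per kb, behind Foxm1, Foxk2, Foxp4, Foxo3 and Foxp1. Its relative Foxf2, which acts in palate and gut mesenchyme, had 19.4 and 11.3 CPM and a log2 ratio of -0.78 (-1.04 to -0.52). Both FoxF genes were thus lower in the p65-null library, and the log2 ratio of their summed fragments was -1.56 (-1.70 to -1.42).

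The FoxC genes lay on opposite sides. Foxc1, needed for the skull vault, the eye's anterior segment and somite mesoderm, had 61.6 CPM in the wild-type and 23.2 CPM in the p65-null library, 2.65-fold lower (2.36 to 2.99). Foxc2, known for lymphatic valves and the axial skeleton, had 12.5 and 22.8 CPM and a log2 ratio of 0.87 (0.63 to 1.11). The GC and length correction took Foxc2 to 0.35. Per kilobase of transcript, Foxc1 was the more abundant of the pair in the wild-type library, at 10.5 against 4.59 CPM per kb, and Foxc2 in the p65-null library, at 8.38 against 3.98 CPM per kb.

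The FoxD genes also parted. Foxd1, a marker of kidney stroma, had 18.02 CPM in the wild-type and 7.0 CPM in the p65-null library and was 2.58-fold lower (2.07 to 3.22). Foxd2, expressed in facial and kidney mesenchyme, was less abundant, with 26 fragments against 56, or 1.23 and 3.70 CPM, and its log2 ratio was 1.59 (0.90 to 2.32), a 3.01-fold higher level. Foxs1, found in neural crest derivatives and pericytes, had 10.4 and 3.70 CPM and was 2.81-fold lower (2.09 to 3.84). Foxq1, a factor of hair and stomach epithelium, had 4.58 and 3.99 CPM, and the interval of its log2 ratio held 0 (-0.68 to 0.28). In the annotation 66.1% of the exonic bases of Foxq1 lie under the opposite-strand gene A530084C06Rik, and the sources used here do not say if counting was stranded.

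Since the FoxC and the FoxD genes each lay on both sides of equal levels, promoters of 4 FoxC, FoxD and FoxF genes are shown. Each runs from 250 bases before to 50 bases after the annotated start, as RefSeq gives it for GRCm38.p6. Promoter windows were matched for 18 of the 31 genes, 23 windows in all, with none for Foxf1 or Foxc2. The first 3 belong to genes that were lower in the p65-null library, Foxc1 (chr13:31806396-31806695, plus strand), Foxf2 (chr13:31625566-31625865, plus strand) and Foxd1 (chr13:98353995-98354294, plus strand), and the last to Foxd2 (chr4:114908849-114909148, minus strand), which was higher. Capitals mark matches to the NF-kB consensus motif (kB) and to CCAAT, each searched on both strands.
Foxc1: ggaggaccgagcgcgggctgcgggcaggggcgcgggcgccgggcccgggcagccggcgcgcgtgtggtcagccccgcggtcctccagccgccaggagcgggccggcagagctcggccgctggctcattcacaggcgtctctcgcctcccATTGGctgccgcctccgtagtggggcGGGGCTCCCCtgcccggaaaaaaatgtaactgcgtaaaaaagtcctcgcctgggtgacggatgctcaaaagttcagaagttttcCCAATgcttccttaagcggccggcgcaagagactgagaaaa
Foxf2: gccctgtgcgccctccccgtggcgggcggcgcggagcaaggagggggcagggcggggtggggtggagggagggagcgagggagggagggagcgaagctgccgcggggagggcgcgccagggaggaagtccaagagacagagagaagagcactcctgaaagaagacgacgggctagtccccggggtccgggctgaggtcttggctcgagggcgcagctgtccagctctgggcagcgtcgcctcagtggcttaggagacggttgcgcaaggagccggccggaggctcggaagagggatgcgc
Foxd1: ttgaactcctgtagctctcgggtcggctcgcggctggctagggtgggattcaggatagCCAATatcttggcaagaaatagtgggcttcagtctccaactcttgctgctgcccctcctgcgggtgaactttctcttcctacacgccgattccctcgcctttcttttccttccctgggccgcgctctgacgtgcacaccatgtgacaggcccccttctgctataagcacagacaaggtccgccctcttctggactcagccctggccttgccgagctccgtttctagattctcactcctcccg
Foxd2: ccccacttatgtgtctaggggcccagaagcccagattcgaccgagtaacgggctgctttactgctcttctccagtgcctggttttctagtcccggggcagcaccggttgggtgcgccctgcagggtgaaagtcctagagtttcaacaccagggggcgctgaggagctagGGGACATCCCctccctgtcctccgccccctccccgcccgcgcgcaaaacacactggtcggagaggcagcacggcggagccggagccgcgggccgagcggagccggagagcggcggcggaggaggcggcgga
The Foxc1 window holds 1 kB match, GGGGCTCCCC, and 2 of CCAAT, the Foxd2 window 1 kB match, GGGACATCCC, the Foxd1 window 1 CCAAT, and the Foxf2 window none of these letters. A kB match thus stands both before a gene that was lower and before a gene that was higher without p65. Across the family, 4 of 23 windows (17.4%) held the kB motif, in Foxa3, Foxc1, Foxd2 and Foxj2, against 8.46% of all 32851 promoter windows. CCAAT was in 43.5% against 37.4%, and the forkhead motif TGTTTAC in 1 window, that of Foxa1, or 4.35% against 3.65%. The forkhead windows were rich in CpG, with a median of 26 CpG per 300 bases against 7 over all windows, and in GC, at 64% against 52.7%. A match is a description of the letters and no evidence of binding.

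Of the measured members, 6 lie in 2 genomic clusters, and within each cluster the genes did not share 1 ratio. On chromosome 8, Foxf1 (121084386 to 121088154), Foxc2 (121116171 to 121118895) and Foxl1 (121127685 to 121130644) lie within 46.3 kb. Foxf1 was lower, Foxc2 higher, and Foxl1, a factor of the gut's subepithelial fibroblasts, had 10 wild-type and 64 p65-null fragments. Foxl1 was at 0.472 and 4.22 CPM, 8.96-fold higher (4.57 to 19.6). The long non-coding gene Fendrr, which begins 1.28 kb from Foxf1 and runs the opposite way, was lower as Foxf1 was, at 7.31 and 3.56 CPM and a log2 ratio of -1.04 (-1.51 to -0.58). Mthfsd, between Foxf1 and Foxc2, had 0.15 (0.00 to 0.30). The direction thus changed over the 34.5 kb from Foxf1 to the end of Foxc2, and it did so after the GC and length correction too, with -2.23 for Foxf1, 0.35 for Foxc2 and 2.67 for Foxl1. The other 8 measured genes within 500 kb had log2 ratios of -0.75 (Zcchc14) to 0.81 (1190005I06Rik).

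On chromosome 13, Foxq1, Foxf2 and Foxc1 span 252 kb. Their log2 ratios were -0.20, -0.78 and -1.41 in the order of the chromosome, so all 3 lay below 0, with intervals of Foxf2 and Foxc1 that do not overlap. Gmds, which begins beyond Foxc1, had 0.26 (0.06 to 0.45), and the GC and length correction took it to -0.03.

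**Figure D3:**
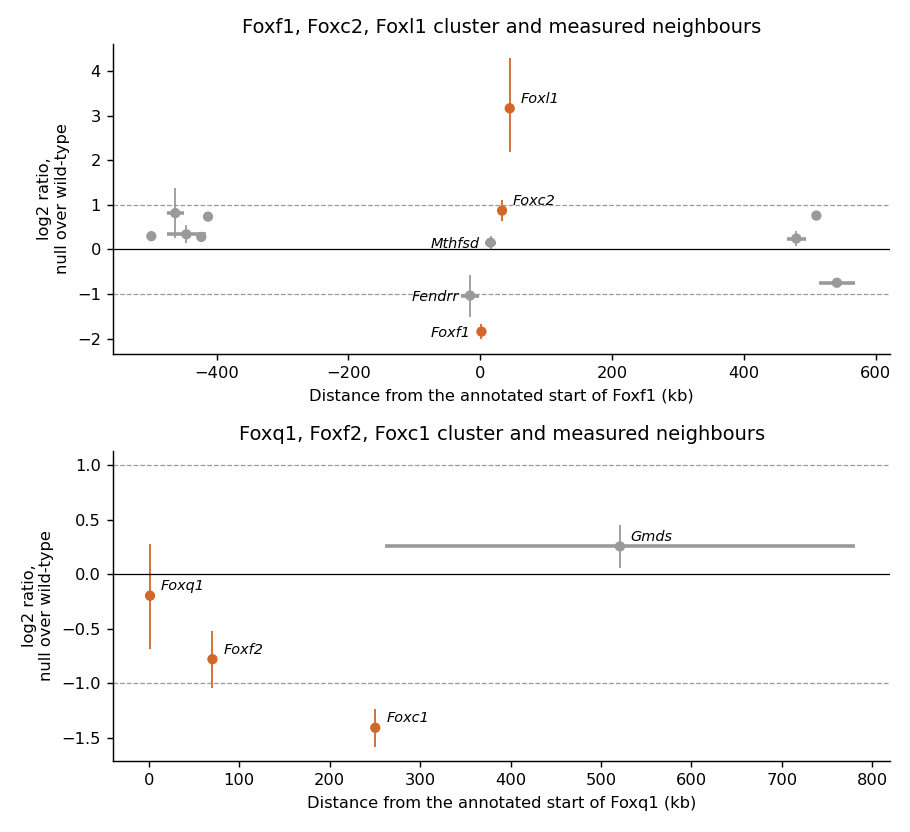
Log2 ratio of p65-null over wild-type for forkhead genes (colour) and other measured genes (grey) within 500 kb, by distance in kb from the annotated start of the first forkhead gene; horizontal bars are the gene spans and vertical lines the 95% counting intervals. In the upper panel Foxf1 and Fendrr lie below 0 while Foxc2 and Foxl1 lie above it; in the lower panel Foxq1, Foxf2 and Foxc1 lie below 0 and Gmds above it.

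Endothelial cells also use Foxf1, Foxc1 and Foxc2. Of 8 endothelial markers 7 were found, with summed levels of 3.44 CPM in the wild-type and 3.89 CPM in the p65-null library, and Cdh5 had 1 and 0, Pecam1 2 and 1 and Tie1 0 and 1 fragments. These markers were thus near 0 in both libraries, except Kdr at 3.26 and 1.91 CPM and Erg with 0 and 25 fragments. In bulk RNA, fewer cells that express a gene and less RNA per cell cannot be told apart.

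The FoxP genes encode repressors that pair with each other through a leucine zipper, and Foxp1, Foxp2 and Foxp4 were all lower in the p65-null library. Foxp1, which acts in lymphocyte, heart and lung development, was the most abundant forkhead gene by CPM in the wild-type library, at 158 CPM, and had 78.6 CPM in the p65-null library. It was 2.01-fold lower (1.88 to 2.15), or within 2-fold after the GC and length correction, as given above. Foxp4, its partner in lung and gut, had 89.2 and 59.5 CPM and a log2 ratio of -0.58 (-0.70 to -0.47). Foxp2, known for its part in speech and vocal learning, had 45 fragments against 2 and was 16.1-fold lower (4.20 to 137). Together the FoxP genes made up 262 CPM in the wild-type and 149 CPM in the p65-null library. None of the 9 FoxP corepressor genes, such as Ctbp1 and the NuRD subunits Chd4 and Mta2, was 2-fold apart, where 25.9% of all measured genes were. Their median log2 ratio was -0.16, and 6 of the 9 lay below 0, where 51.2% of all measured genes did. After the GC and length correction the median was -0.40, and 8 of the 9 lay below 0, where 55.6% of all did. At least 2-fold lower was then 1 of them, Ctbp1, at -1.11, where 10.2% of all were.

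Foxp3, the master factor of regulatory T cells, was listed at 12.6 CPM in the wild-type and 11.2 CPM in the p65-null library, with a log2 ratio of -0.18 (-0.47 to 0.10). Ptprc, the pan-leukocyte marker, had 2 and 0 fragments, and the 5 haematopoietic markers found of 8 summed to 3.68 and 5.61 CPM, of which Cd68 and Csf1r made up most. The level of Foxp3 was above this sum in both libraries. The annotation places 18.6% of its exonic bases under Flicr, a non-coding gene on the same strand with 15.5 and 13 fragments, and 12.9% under Ccdc22, 8.15% under Gm36995 and 5.81% under Ppp1r3f, all on the opposite strand. Ccdc22 stood at 45.6 and 45.2 CPM. Reads in the bases shared with Flicr cannot be assigned by strand, and without a stated use of strand those of Foxp3 and of the other neighbours cannot be told apart either.

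The FoxK genes, broadly expressed repressors that bind the deubiquitinase BAP1 and hold down autophagy genes, were abundant and moderately lower in the p65-null library. Foxk2 had 149 and 97.0 CPM and a log2 ratio of -0.62 (-0.71 to -0.53), and Foxk1 had 72.5 and 59.6 CPM and one of -0.28 (-0.40 to -0.16). Neither reached 2-fold, though Foxk2 did under ribosomal protein scaling, at -1.02. The 8 genes of FoxK partners all lay within 2-fold, where 25.9% of all measured genes were 2-fold apart. Of these 8, 7 lay below 0, where 51.2% of all measured genes were, with a median of -0.40. After the correction 6 lay below 0, where 55.6% of all did, with a median of -0.20. Bap1 was at -0.06, the scaffold Hcfc1 at -0.53, and the corepressor Sin3b alone was above 0, at 0.84.

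In the FoxN subclass, Foxn2 was lower and Foxn3 was not distinguishable from equal levels. Foxn2 had 42.5 CPM in the wild-type and 16.8 CPM in the p65-null library, 2.52-fold lower (2.19 to 2.91), which the GC and length correction brought within 2-fold. Foxn3, a checkpoint suppressor, had 12.4 and 11.0 CPM, with an interval of -0.46 to 0.12 on the log2 scale. Of the FoxJ genes, Foxj3 had 45.6 and 34.8 CPM and a log2 ratio of -0.39 (-0.55 to -0.23), and Foxj2 had 28.1 and 27.6 CPM (-0.21 to 0.16). Both are widely expressed, and neither was 2-fold apart.

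**Figure D4:**
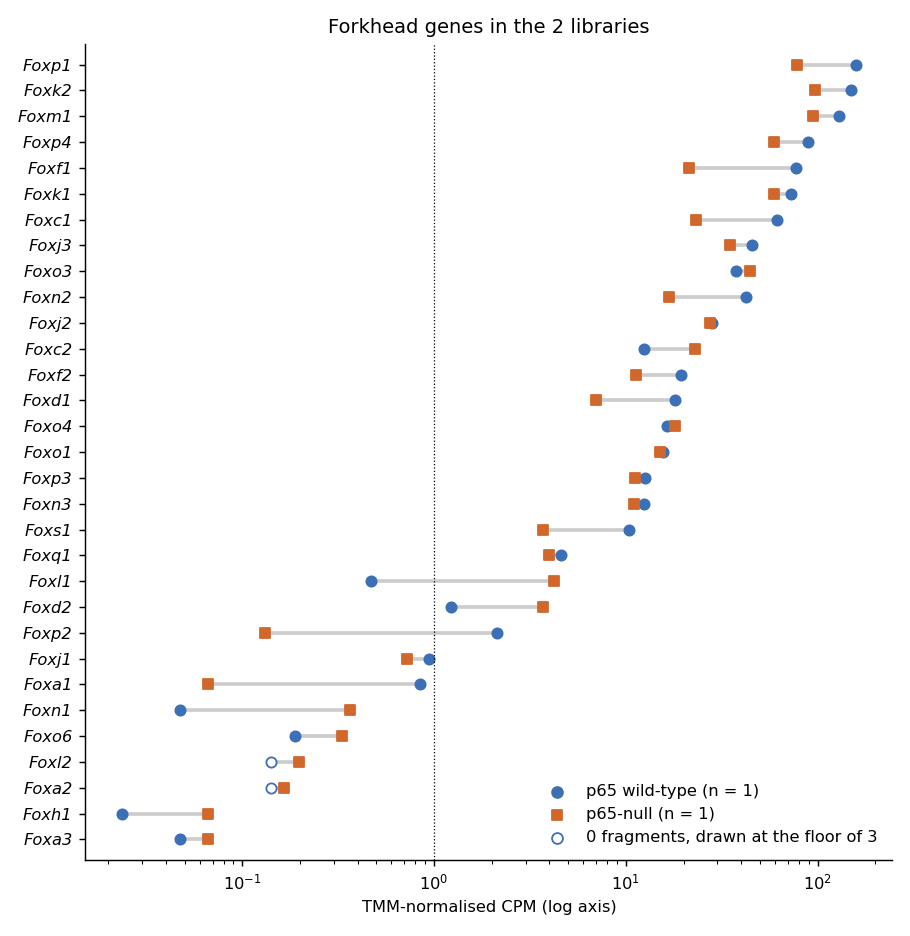
TMM-normalised CPM (log axis) of the 31 forkhead genes in the wild-type library (circles) and the p65-null library (squares), 1 library each, ordered by the higher level; open symbols are 0 fragments drawn at the floor of 3 fragments, and the dotted line is 1 CPM. Foxp1, Foxk2 and Foxm1 are at the top in both libraries, and the widest gaps are those of Foxp2, Foxa1 and Foxl1.

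Foxm1, a factor of dividing cells, was the third most abundant by CPM in the wild-type library, with 130 CPM against 94.5 CPM in the p65-null library. It was 1.37-fold lower (1.29 to 1.47). Of 20 common FoxM1 target genes, all measured, 18 lay within 2-fold, and the median log2 ratio was -0.16. At least 2-fold lower were 2 and at least 2-fold higher 0, where 13.7% and 12.2% of all measured genes were. The lower ones were the kinase gene Bub1, at 2.14-fold (1.93 to 2.38), and the kinetochore gene Cenpf, at 2.01-fold (1.79 to 2.25). After the correction these 2 were at -0.33 and -0.28, and 0 of the 20 were at least 2-fold apart, where 10.4% of all were higher and 10.2% lower. The median of the targets was then -0.28, and 13 of the 20 lay below 0, where 55.6% of all did. Foxm1 itself moved from -0.46 to -0.73. Within 2-fold, single targets lay on either side, such as Kif20a, a mitotic kinesin, at -0.86 and Ccnb2, a mitotic cyclin, at 0.80, while Plk1 had 91.6 and 95.7 CPM. Of the 6 genes of FoxM1 partners, 2 were at least 2-fold lower, where 13.7% of all measured genes were. These were Lin54 and Lin9, subunits of the MuvB complex, at log2 ratios of -1.82 and -1.01. After the correction they were at -0.97 and -0.40. Mybl2, which encodes B-Myb, had -0.27, or -0.76 after the correction.

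The FoxO genes lay close to equal levels, with sums of 70.0 CPM in the wild-type and 77.7 CPM in the p65-null library. Foxo3 had 37.7 CPM in the wild-type and 44.2 CPM in the p65-null library, with a log2 ratio of 0.23 (0.08 to 0.38). Foxo1, at 15.7 and 15.1 CPM, had -0.05 (-0.30 to 0.19), and Foxo4, at 16.4 and 17.99 CPM, had 0.13 (-0.10 to 0.37). The direction of all 3 turned with the GC and length correction, to -0.26 for Foxo3, 0.14 for Foxo1 and -0.23 for Foxo4, so no direction is assigned to them. Foxo4, like Foxp3, lies on the X chromosome.

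Most genes that act on FoxO proteins and most common FoxO targets lay within 2-fold, where 25.9% of all measured genes were 2-fold apart. Of 28 kinase relay and cofactor genes, all measured, 21 had a log2 ratio below 0, where 51.2% of all measured genes did, and the median was -0.37. After the correction 16 of the 28 lay below 0, against 55.6% of all, with a median of -0.16. The lower ones past 2-fold were Pik3cb, a catalytic subunit of PI3 kinase, at 3.54-fold (2.99 to 4.22), and the deacetylase gene Sirt1, at 3.18-fold (2.52 to 4.05). Sgk3, a kinase related to AKT, had 10 and 33 fragments and was 4.62-fold higher (2.22 to 10.5), but it passed the minimum through the p65-null library alone and so had to differ. After the correction Ywhag, which encodes a 14-3-3 protein that retains FoxO in the cytoplasm, also passed 2-fold, at -1.10. Akt1 had 401 and 476 CPM, and its log2 ratio of 0.25 turned to -0.23 after the correction. Of the 28 FoxO targets 25 were measured, with a median of 0.26. Among them 2 were at least 2-fold higher and 2 lower, where 12.2% and 13.7% of all measured genes were. The cell cycle inhibitor Cdkn1a, also a p53 target, had 3.80 and 28.3 CPM and was 7.46-fold higher (5.87 to 9.58), and Pdk4, a kinase that restrains pyruvate oxidation, had 5.92 and 23.3 CPM and was 3.94-fold higher (3.20 to 4.86). Rictor, a subunit of mTORC2, was 2.47-fold lower (2.26 to 2.69), or at -0.51 after the correction, and Gadd45a 2.15-fold lower (1.54 to 3.06). Cdkn1b, which encodes p27, lay at -0.06, and the thioredoxin inhibitor gene Txnip at 0.87.

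The Hedgehog relay, which acts upstream of several mesenchymal forkhead genes, held more genes past 2-fold upwards than downwards. Of 13 genes found 10 were measured, of which 4 were past 2-fold upwards and 1 downwards, where 25.9% of all measured genes were 2-fold apart in either direction. Hhip passed the minimum through the wild-type library alone and Gli1 through the p65-null library alone, so both had to differ. Of the other 8 genes, 3 were past 2-fold upwards and 0 downwards. The same shares over all genes at the minimum in both libraries were not computed. The median log2 ratio of the 10 was 0.50. The coreceptor genes Gas1 and Boc lay at log2 ratios of 2.51 (2.41 to 2.62) and 1.63 (1.47 to 1.79), and the effector Gli2 had 1.58 (1.38 to 1.79). Hhip, which binds Hedgehog ligands and is induced by the pathway, had 75.5 wild-type and 0 p65-null fragments. Against a floor of 3 fragments its log2 ratio was -4.17, with a counting interval that reached up to -3.84. Gli1, another gene induced by the pathway, was the fourth of the higher genes, with 10 and 33.5 fragments. Ptch1, induced likewise, had -0.39 (-0.63 to -0.16). The ligand genes Ihh and Dhh had at most 3 fragments in either library.

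**Figure D5:**
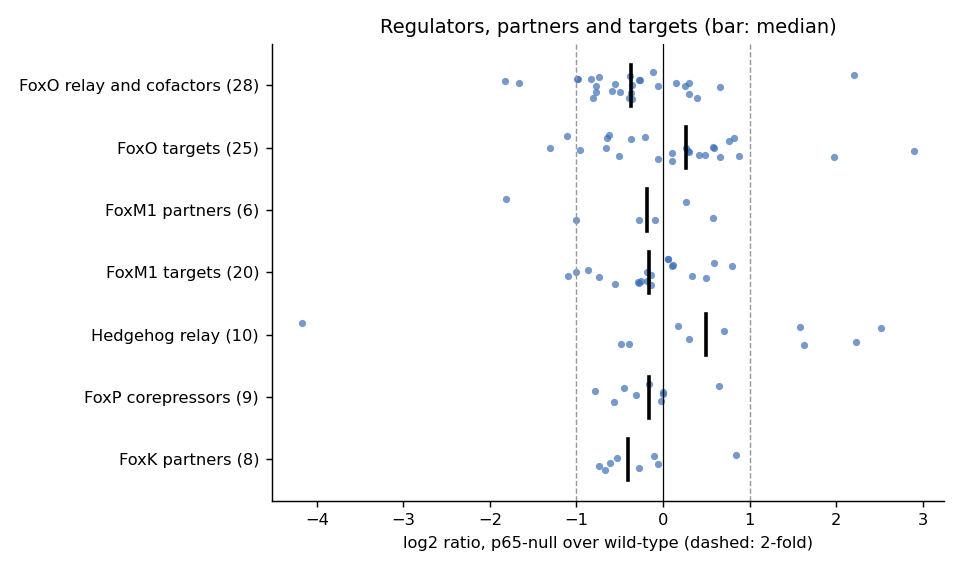
Each point is a measured gene of a list of forkhead regulators, partners or targets, with its log2 ratio of p65-null over wild-type on the x axis; black bars are medians, dashed lines mark 2-fold and the number of genes stands in brackets. Genes of the FoxP corepressor and FoxK partner lists all lie inside the dashed lines, while the Hedgehog relay spreads from Hhip on the left to Gas1 on the right. Hhip passed the minimum through the wild-type library alone, so it had to differ.

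Under the minimum were 8 forkhead genes, several of them known mainly from other tissues. Foxa1, a pioneer factor of endoderm and breast epithelium, had 18 wild-type fragments and 1 p65-null fragment, 12.9-fold lower with a wide counting interval (2.03 to 536). Foxj1, the master factor of motile cilia, had 20 and 11 fragments, and the 5 multiciliated markers found of 8 summed to 1.25 and 1.78 CPM. The thymic epithelial factor Foxn1 had 1 and 5.5 fragments, with a ratio of 7.70 whose interval runs from 0.900 to 359. Foxo6, a FoxO gene of the brain, had 4 and 5 fragments. No fold is given for Foxa2 (0 and 2.5 fragments), Foxa3 (1 and 1), Foxh1 (0.5 and 1) and the ovarian factor Foxl2 (0 and 3), since both libraries were at or under 3 fragments, a floor of 0.142 CPM in the wild-type and 0.198 CPM in the p65-null library. Of 8 epithelial markers 7 were found, with sums of 16.9 and 51.4 CPM, of which Krt19 made up most, at 16.8 and 48.6 CPM. Of the others, Epcam had 0 and 1 fragments, Krt18 0 and 23 and Cdh1 0 and 11. Against the floor of 3 wild-type fragments Krt18 was 10.7-fold and Cdh1 5.13-fold higher, with counting intervals that began at 8.04-fold and 3.51-fold.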

How the data were processed

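Total RNA was sequenced on an Illumina instrument, per the labels, in 1 p65 wild-type and 1 p65-null library. The build mm10 and the tools STAR 2.4, bcl2fastq 2.16, edgeR and HOMER stand without roles in the submitters' processing notes. The deposited values, named raw counts, are a scaled signal, since many have decimals and the 2 columns share 1 total. All 13928 wild-type and 13994 p65-null values up to 2000 were whole multiples of 1 step per column (100%, tolerance 0.0055). A fragment was taken as 2 steps, giving the depths stated. The unit thus differed from the counts planned for, and no count test was run, because single libraries give no estimate of spread.

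Transcripts were named through RefSeq (GRCm38.p6, 16743 matched) and GENCODE M21 (83), and 55 had no match; they took 3.13% and 3.84% of fragments. TMM factors (edgeR 4.0.16, R 4.3.3) were 1.02 and 0.981. Ratios are p65-null over wild-type, with a count of 0 set to 3 fragments. Intervals were computed with scipy 1.17.1 and tested on simulated data. GC content and length of the matched GENCODE transcripts were corrected by loess (span 0.3). PCR copies could not be marked in the deposited values, so the intervals and floors treat every fragment as a separate count. Counting error alone enters them. The handling of overlapping genes is not stated in the sources used here.

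The members and lists were chosen with earlier results of these data known. One further gene that met the rule is not reported here. Named are the forkhead genes, Rela, measured neighbours, defining fibroblast markers, and in each list up to 3 higher and 3 lower genes past 2-fold by the interval end; other genes of lists and markers were named after their values were seen. Alternatives were total counts, DESeq2 1.42.0 size factors, upper quartile and ribosomal protein scaling, other minimums, a prior count of 2, the interval end, the deposited values, and the GC and length correction.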

Additional observations from a re-analysis of the deposited data

How the results depend on the processing

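The count of forkhead genes at least 2-fold lower was 7, and it ran from 6 to 9 over the alternatives; Foxp1 fell within 2-fold under upper quartile factors, at -0.90, ribosomal protein scaling added Foxf2 (-1.18) and Foxk2 (-1.02), and Foxa1 came in with no minimum. The count at least 2-fold higher was 2, and it was 3 with no minimum, which lets in Foxn1, 0 with a mean of at least 5 CPM, which leaves out Foxd2 and Foxl1, and 1 when the interval end nearest to equal levels replaced the ratio. The median log2 ratio of -0.39 was -0.79 under ribosomal protein scaling, which also moved the median of all measured genes from -0.03 to -0.44 and the percentage higher, of genes 2-fold apart, from 46.9% to 23.0%. Upper quartile factors moved the median of all genes to 0.09. Single genes turned direction as follows. Under upper quartile factors Foxj2 was at 0.090 and Foxo1 at 0.060, under ribosomal protein scaling Foxo3 was at -0.17 and Foxo4 at -0.27, and with the GC and length correction Foxo1 was at 0.14, Foxo3 at -0.26 and Foxo4 at -0.23. The cause was not tested. No paired analysis was possible because each genotype has 1 library. The p65-null library was the shallower one, and depth limits the genes under 1 CPM.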

Other observations

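The opposite-strand genes of the family, left out above, were listed with low values. Foxd2os, which lies head to head with Foxd2, had 7.57 CPM in the wild-type and 7.10 CPM in the p65-null library and lay at -0.09 on the log2 scale (-0.46 to 0.27), whereas Foxd2 had 1.59 (0.90 to 2.32). Foxl2os had 0 and 1 fragments. The 31 forkhead genes together summed to 1019 CPM in the wild-type and 671 CPM in the p65-null library, and Foxp1, Foxk2 and Foxm1 made up 42.9% and 40.2% of these sums.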
